A study of Mus musculus with 24 samples.

Results

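Marker genes of liver macrophages were followed in whole liver of lipodystrophic and control mice, 10 of the 23972 genes in the count table. They were taken by name as markers, and no threshold on a value chose them. These genes and the further lists below were, however, chosen with earlier results of these data known. Of these, 5 mark resident Kupffer cells (Clec4f, Timd4, Vsig4, Marco, and Cd5l), 2 mark macrophages in general (Adgre1 and Cd68), and 3 mark lipid-associated macrophages (Trem2, Gpnmb, and Cd9). RNA-Seq counts came from 24 livers of female mice, and each library was a separate animal by its label. Controls were Lmna fl/fl Adipoq-Cre- mice and LmnaADKO mice were Lmna fl/fl Adipoq-Cre+, so that both genotypes carried loxP sites around exons 10 and 11 of Lmna. Adipoq-Cre acts in adipocytes and adipocyte-lineage cells of the marrow and not in macrophages or hepatocytes, and Lmna counts in whole liver are therefore no check of the deletion. Mice were 12 to 14 weeks old at the start, were housed at 22°C, and ate a 60% high-fat diet for 4 weeks before a retro-orbital injection of vehicle or of an adeno-associated virus that expresses FGF21, and livers were taken 8 weeks later. There were 7 vehicle-treated controls, 3 FGF21-treated controls, 6 vehicle-treated LmnaADKO mice, and 8 FGF21-treated LmnaADKO mice. The labels call the second treatment a rescue, and it was read as FGF21 from the study's methods for the experiment at this temperature. Counts on Fgf21 do not separate the treatments, with 1.9 to 10.8 CPM under vehicle and 3.14 to 7.4 CPM under FGF21 in controls, and 4.63 to 10.6 and 2.19 to 9.99 CPM in LmnaADKO mice. Libraries held 19863304 to 21510054 counts. In 3 of them, vehicle-treated control library 3, FGF21-treated control library 3, and FGF21-treated LmnaADKO library 7, long genes were under-represented relative to short ones more than in the other libraries. For this, log2 CPM (the count scaled to library size by the TMM method) was taken minus the median of each gene in the same genotype. Its slopes on log2 exonic length, over 9694 expressed protein-coding genes, were -0.154, -0.289, and -0.331, against -0.109 to 0.128 elsewhere. Calls of the 10 genes that changed without these 3 libraries are given with and without them.

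Kupffer cells are the macrophages that line the liver sinusoids, where they take up particles, bacteria, and aged blood cells. Embryo-derived Kupffer cells express the phosphatidylserine receptor Timd4, and when they are lost, monocytes from the blood can enter, first without Timd4, and acquire a Kupffer cell identity that includes Clec4f. In fatty liver and in obese adipose tissue, macrophages that handle lipid take on a program with the lipid receptor Trem2, the lysosome-related glycoprotein Gpnmb, and the tetraspanin Cd9. All of these genes were read out in whole liver, in which fewer cells of a type and less RNA of a gene per cell cannot be told apart.

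The 250 bases before the RefSeq start sites (GRCm38.p6) were available for 9 of the 10 genes. They are shown for the pair of resident genes and the pair of lipid-associated genes that varied most closely together between livers, Timd4 at chr11:46810549-46810798 (plus strand), Marco at chr1:120505025-120505274 (minus strand), Trem2 at chr17:48346151-48346400 (plus strand), and Gpnmb at chr6:49036268-49036517 (plus strand). Each is written 5′ to 3′ on the strand of its gene, and capitals mark GAGGAA or its reverse complement TTCCTC, the core that the myeloid factor PU.1 binds.
Timd4: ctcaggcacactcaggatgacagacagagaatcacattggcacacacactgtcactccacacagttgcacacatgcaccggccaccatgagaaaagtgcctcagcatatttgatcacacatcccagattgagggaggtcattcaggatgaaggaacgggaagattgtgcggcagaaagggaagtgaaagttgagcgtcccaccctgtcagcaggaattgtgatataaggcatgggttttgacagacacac
Marco: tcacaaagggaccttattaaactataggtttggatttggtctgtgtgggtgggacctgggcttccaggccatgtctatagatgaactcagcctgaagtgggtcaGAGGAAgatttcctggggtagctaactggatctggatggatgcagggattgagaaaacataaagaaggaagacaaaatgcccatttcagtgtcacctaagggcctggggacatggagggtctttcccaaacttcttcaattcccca
Trem2: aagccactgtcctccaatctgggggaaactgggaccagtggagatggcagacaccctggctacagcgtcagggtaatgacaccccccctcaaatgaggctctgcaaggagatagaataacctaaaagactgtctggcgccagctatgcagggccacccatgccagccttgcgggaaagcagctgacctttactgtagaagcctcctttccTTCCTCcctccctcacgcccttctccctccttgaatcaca
Gpnmb: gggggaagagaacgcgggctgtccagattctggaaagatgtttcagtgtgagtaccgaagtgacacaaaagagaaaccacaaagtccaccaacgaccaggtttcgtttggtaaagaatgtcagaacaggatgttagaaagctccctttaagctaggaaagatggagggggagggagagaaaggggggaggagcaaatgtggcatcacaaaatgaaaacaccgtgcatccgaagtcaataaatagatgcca
One match stood in Marco, 146 to 141 bases before the start, and 1 in Trem2 on the other strand, 40 to 35 bases before it. Vsig4 held 2 matches, and Cd5l and Cd68 held 1 each. Of 32851 RefSeq promoters of the same length, 23.3% held this core on either strand. TGACTCA, the AP-1 site, was present in 4.46% of promoters and had 2 matches in that of Cd68, and CACGTG, the E-box, was present in 6.02% and in none of the 9. No match says only that these letters were not in the window. The RefSeq start of Gpnmb lies before the start of the gene in the annotation used to locate the counts.

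All 10 genes were detected in every library above 3 counts, which correspond to 0.124 to 0.176 CPM, and their levels per kilobase of exon spanned the range from abundant resident genes to rare lipid-associated genes. In vehicle-treated controls, Cd5l, a secreted scavenger protein, had the highest level at 112 ± 11.1 CPM per kb (SD, n = 7), followed by Clec4f, a galactose-binding lectin of Kupffer cells, at 90.7 ± 16.5. The ranges of this pair overlapped. Vsig4, a complement receptor, was next at 37.1 ± 8.1 and did not overlap with Clec4f or with Cd68 at 21.4 ± 3.55. Marco (17.5 ± 7.52), Adgre1 (11.2 ± 2.22), Cd9 (7.31 ± 3.0), and Timd4 (5.67 ± 1.08) followed, each overlapping in range with the next. Trem2 and Gpnmb were lowest, at 0.402 ± 0.211 and 0.369 ± 0.635 CPM per kb, and both lay below every library of Timd4. In vehicle-treated LmnaADKO livers, Cd9 stood at 18.4 ± 4.25 CPM per kb, above Marco at 7.42 ± 8.61, and Gpnmb at 1.7 ± 1.08 stood above Trem2 at 0.914 ± 0.439, although the ranges of each pair overlapped.

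**Figure D1:**
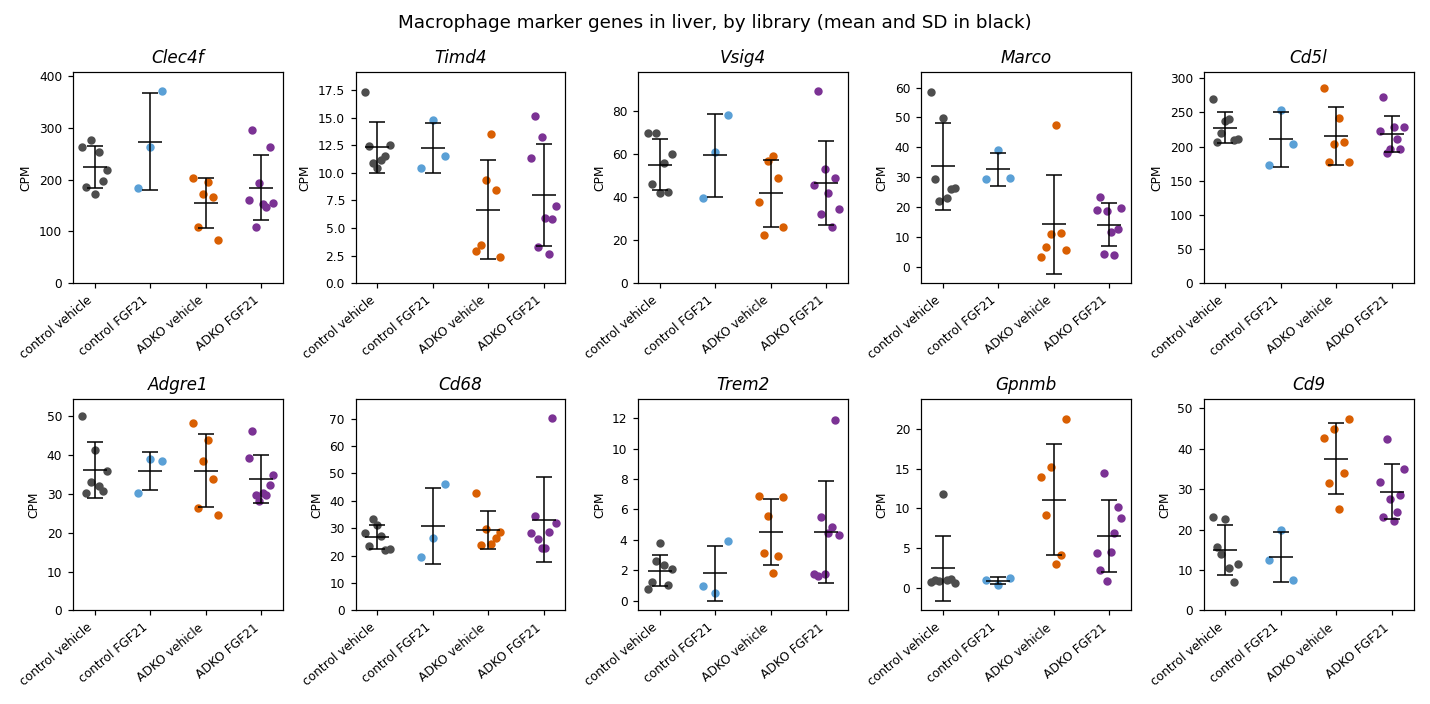
Normalised counts (CPM) of the 10 macrophage marker genes, with 1 point per library and the mean and SD of each group in black. Cd9 lay between 25.1 and 47.3 CPM in all 6 vehicle-treated LmnaADKO livers, above the maximum of 23.1 CPM in vehicle-treated controls, whereas the ranges of Adgre1, Cd68, and Cd5l overlapped among the 4 groups.

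Lipid-associated genes were higher and most resident genes were lower in estimate in LmnaADKO than in control livers under vehicle, and Cd9 and Gpnmb passed the thresholds. A gene was called at an adjusted p under 0.05 over all genes (edgeR quasi-likelihood test with Benjamini-Hochberg adjustment) together with a fold change above 1.5. By this rule 2 of the 10 genes were called, both higher, against 8.48% of all genes, of which 5.12% were higher and 3.36% lower. All 3 lipid-associated genes were higher in estimate, and all 5 resident genes were lower in estimate, while Adgre1 and Cd68 differed little. Animal numbers had 3 digits in 6 of the 7 vehicle-treated controls and 4 digits in 5 of the 6 vehicle-treated LmnaADKO mice. Number series and genotype can therefore hardly be told apart in any comparison under vehicle. With the number series as a covariate, Gpnmb was 2.27 and not called (edgeR adjusted p = 0.121).

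Cd9, a tetraspanin of the cell surface that is also made by cells other than macrophages, ranged from 6.95 through a median of 13.9 to 23.1 CPM in vehicle-treated controls, and from 25.1 through 38.4 to 47.3 CPM in vehicle-treated LmnaADKO livers. Every LmnaADKO library exceeded every control, a separation upward that 4.22% of all genes showed. The log2 fold change was 1.33 ± 0.249 (SE), a 2.52-fold higher level, with an adjusted p of 0.000699 in edgeR. Of 5 markers of bile duct cells, Spp1 was the 1 called in this comparison, at 23.3 to 45.3 CPM (median 32.6) in vehicle-treated controls and 78.7 to 186 CPM (median 107) in LmnaADKO livers. Spp1 is a gene of the lipid-associated program as well. The other 4 markers, Krt19, Krt7, Epcam, and Sox9, were higher in estimate (0.46 to 0.90) and not called. Their summed level was 3.74 to 7.96 CPM and 7.06 to 10.1 CPM, with overlap, and none of the 5 was at 0 in every library of a group. Their part in the Cd9 difference was not tested.

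Gpnmb, a transmembrane glycoprotein of lysosome-rich macrophages, was at most 1.02 CPM in 6 of the 7 vehicle-treated controls and 11.8 CPM in the other, library 4. The median of that group was 0.89 CPM. Vehicle-treated LmnaADKO livers held 2.92 to 21.3 CPM with a median of 11.5, so that all 6 exceeded the control median and 3 of 6 exceeded library 4. The log2 fold change was 2.19 ± 0.723 (edgeR adjusted p = 0.0451). Without control library 4 it was 3.72 with an adjusted p of 0.000336 in edgeR, and across the 13 fits that each left out 1 library it was called in 3, those without control library 4 or without LmnaADKO library 4 or 5, with edgeR adjusted p-values up to 0.113 in the others. It was no longer called without the 3 libraries with steep length slopes (2.06, edgeR adjusted p = 0.0808).

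Trem2, the lipid-sensing receptor of this program, ranged from 0.771 through 2.1 to 3.77 CPM in vehicle-treated controls and from 1.85 through 4.33 to 6.9 CPM in LmnaADKO livers. Of the latter, 3 of 6 lay above every control. The log2 fold change of 1.19 ± 0.503 was not called (edgeR adjusted p = 0.128), whereas DESeq2 on all groups gave 1.18 with an adjusted p of 0.0477. Counts of Trem2 were low, with 17 to 82 reads per library in these controls.

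Marco, a scavenger receptor for bacteria and particles, ranged from 22 through 26.4 to 58.5 CPM in vehicle-treated controls. In vehicle-treated LmnaADKO livers it ranged from 3.43 through 8.87 to 47.5 CPM. Of these, 5 of 6 lay between 3.43 and 11.4 CPM, below every control, and library 4 lay among the controls. The log2 fold change of -1.24 ± 0.522 was not called (edgeR adjusted p = 0.126), and without library 4 it was -2.14 with an adjusted p of 0.00203 in edgeR. Timd4, the receptor for dying cells on long-lived Kupffer cells, showed the same library apart. It ranged from 10.4 through 11.5 to 17.3 CPM in controls and from 2.39 through 5.97 to 13.5 CPM in LmnaADKO livers, of which 5 of 6 lay below every control. Its log2 fold change of -0.89 ± 0.403 was not called (edgeR adjusted p = 0.159), and without library 4 it was -1.22 (edgeR adjusted p = 0.0473).

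Clec4f ranged from 173 through 219 to 277 CPM in vehicle-treated controls and from 83.4 through 170.0 to 204 CPM in LmnaADKO livers, all 6 of which lay below the control median and 3 of which lay below every control. Its log2 fold change was -0.53 ± 0.225 (edgeR adjusted p = 0.124). Vsig4 overlapped more widely, with 41.9 to 69.9 CPM in controls and 22.3 to 58.9 CPM in LmnaADKO livers (-0.40 ± 0.265, edgeR adjusted p = 0.355). Cd5l had the most even level among the resident genes, with 207 to 269 CPM in controls and 177 to 286 CPM in LmnaADKO livers and a log2 fold change of -0.08 ± 0.119 (edgeR adjusted p = 0.73). None of these 3 genes was called.

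Adgre1, which encodes the macrophage antigen F4/80, ranged from 30.2 through 33.1 to 50 CPM in controls and from 24.6 through 36.2 to 48.2 CPM in LmnaADKO livers, with a log2 fold change of -0.01 ± 0.149 (edgeR adjusted p = 0.989). Cd68, a lysosomal membrane protein of macrophages, ranged from 22 through 27.1 to 33.4 CPM and from 23.9 through 27.5 to 42.8 CPM, with a log2 fold change of 0.13 ± 0.232 (edgeR adjusted p = 0.796). The groups overlapped throughout for both. Csf1r, the receptor for the macrophage growth factor, and the complement genes C1qa, C1qb, and C1qc, all made by most macrophages, had log2 fold changes of -0.24 ± 0.128, -0.28 ± 0.172, -0.17 ± 0.264, and -0.11 ± 0.203, and none of the 4 was called.

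Each gene was also expressed against these 4 general genes in the same library, as its log2 CPM minus their mean log2 CPM. Since the 4 were themselves lower in estimate in LmnaADKO livers, this scale raises every gene there. On this relative scale Gpnmb was -6.30 ± 1.43 (SD, n = 7) in vehicle-treated controls and -3.33 ± 1.18 (SD, n = 6) in vehicle-treated LmnaADKO livers, Trem2 was -5.82 ± 0.75 and -4.45 ± 0.77, and Cd9 was -2.92 ± 0.52 and -1.31 ± 0.44. The relative level of Cd9 did not overlap between these groups, at -3.61 to -2.23 and -2.02 to -0.71. These are the libraries in which its CPM also separated, so this is no further support. The share of all genes that separate on this scale was not computed. Relative to the general genes, Marco was -1.74 ± 0.53 and -3.23 ± 1.31, Timd4 was -3.10 ± 0.26 and -4.04 ± 1.01, and Clec4f was 1.07 ± 0.18 and 0.70 ± 0.33. Vsig4 was -0.96 ± 0.2 and -1.21 ± 0.5. Cd5l moved the other way in estimate, at 1.11 ± 0.14 and 1.22 ± 0.06. The general genes Adgre1 (-1.56 ± 0.21 and -1.38 ± 0.16) and Cd68 (-1.98 ± 0.14 and -1.66 ± 0.22) were also higher in estimate on this scale. These relative values are a description and were not tested.

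**Figure D2:**
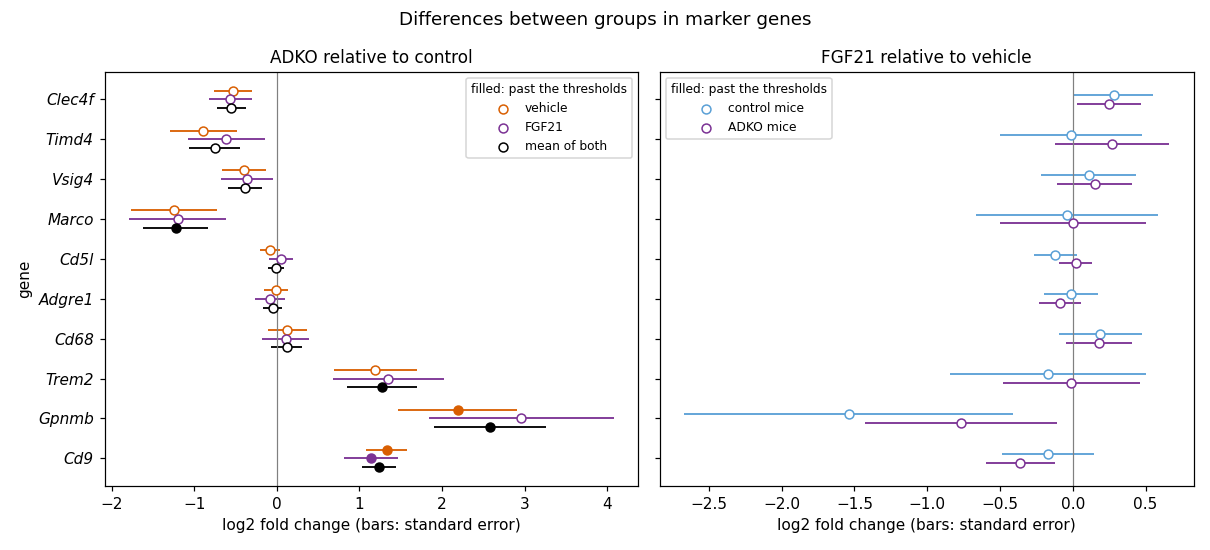
Log2 fold changes of the 10 genes with standard errors, for LmnaADKO relative to control (left) under vehicle, under FGF21, and averaged over both, and for FGF21 relative to vehicle (right) in each genotype. Filled points passed both thresholds, which under vehicle were Gpnmb (2.19) and Cd9 (1.33), under FGF21 Cd9 (1.14), and in the average Marco (-1.22), Trem2 (1.27), Gpnmb (2.58), and Cd9 (1.24); no point was filled on the right.

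Under FGF21, LmnaADKO livers also had more Cd9 RNA than controls, and it was the 1 gene of the 10 called, against 2.88% of all genes (1.61% higher and 1.26% lower). FGF21-treated controls had 12.5, 19.8, and 7.57 CPM of Cd9, and FGF21-treated LmnaADKO livers had 22.2 to 42.3 CPM with a median of 28. All 8 exceeded all 3 controls, as 2.98% of all genes did, and the log2 fold change was 1.14 ± 0.324 (edgeR adjusted p = 0.0486). The call was lost when any of LmnaADKO libraries 1, 3, 4, 6, and 8 or control libraries 1 and 3 was left out, and without the 3 libraries with steep length slopes it was 0.88 with an adjusted p of 0.301 in edgeR. Gpnmb was 0.951, 0.35, and 1.22 CPM in the FGF21-treated controls and 0.774 to 14.5 CPM in LmnaADKO livers with a median of 5.68, of which 7 of 8 exceeded every control. Its log2 fold change of 2.96 ± 1.12 was not called (edgeR adjusted p = 0.163), and DESeq2 on all groups gave an adjusted p of 0.0131.

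Trem2 under FGF21 was 0.951, 0.549, and 3.9 CPM in controls and 1.61 to 11.9 CPM (median 4.37) in LmnaADKO livers. The highest value in each genotype came from a library with a steep length slope, FGF21-treated control library 3 and LmnaADKO library 7. The log2 fold change was 1.35 ± 0.67 (edgeR adjusted p = 0.314). It was 2.57 without control library 3, 0.97 without LmnaADKO library 7, 0.91 without control library 2, and 2.21 without the 3 libraries with steep length slopes, with edgeR adjusted p-values of 0.146, 0.373, 0.622, and 0.14. Marco was 29.3, 39.1, and 29.8 CPM in FGF21-treated controls and 4.08 to 23.4 CPM (median 15.8) in LmnaADKO livers. All 8 lay below all 3 controls, as 2.37% of all genes did, yet the log2 fold change of -1.20 ± 0.591 was not called (edgeR adjusted p = 0.31). Timd4 was 10.4, 14.8, and 11.5 CPM against 2.65 to 15.1 CPM (median 6.41), and 5 of 8 LmnaADKO livers lay below every control (-0.61 ± 0.47, edgeR adjusted p = 0.548). For Clec4f, Vsig4, Cd5l, Adgre1, and Cd68 the log2 fold changes were -0.56, -0.36, 0.05, -0.08, and 0.11, and none was called. Without control library 3 the values of Clec4f, Vsig4, and Cd68 were -0.28, -0.12, and 0.52, and Cd68 was -0.15 without LmnaADKO library 7.

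Since the genotype differences had the same sign under both treatments in 9 of the 10 genes (all but Cd5l), the difference averaged over vehicle and FGF21 was fitted as well, a comparison chosen after the data were seen. It drew on the same libraries and is no independent support for the values above. In this average 4 of the 10 genes were called, 3 higher and 1 lower, against 8.59% of all genes, of which 5.13% were higher and 3.46% lower. Cd9 differed by 1.24 ± 0.207 (edgeR adjusted p = 0.00015) and was higher in 14 of 14 LmnaADKO livers than the control median. Gpnmb differed by 2.58 ± 0.676 (edgeR adjusted p = 0.00945) and Trem2 by 1.27 ± 0.422 (edgeR adjusted p = 0.0376), and each was above the control median in 13 of 14 LmnaADKO livers. Marco was lower by a log2 fold change of -1.22 ± 0.393 (edgeR adjusted p = 0.0323), with 12 of 14 LmnaADKO livers below all 10 controls. Clec4f passed the adjusted p alone (0.027, edgeR), as 19.4% of all genes did, but its fold of 1.46 lay under the fold threshold, and 8 of 14 livers lay below all controls. Without the 3 libraries with steep length slopes, Clec4f was -0.41 with an adjusted p of 0.165 in edgeR. Timd4 was below all controls in 10 of 14 livers and was not called (-0.75 ± 0.308, edgeR adjusted p = 0.0978).

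The averaged calls of Cd9 and Gpnmb held in all 24 fits with a single library removed, those of Marco and Trem2 in 17 and 15. Marco lost its call without vehicle-treated LmnaADKO library 2, 3, 5, or 6, vehicle-treated control library 1, or FGF21-treated control library 2 or 3. Trem2 lost its call without vehicle-treated LmnaADKO library 1, 3, or 6, FGF21-treated LmnaADKO library 3, vehicle-treated control library 1, 2, or 6, or FGF21-treated control library 1 or 2. Without the 3 libraries with steep length slopes, Trem2 differed by 1.74 (edgeR adjusted p = 0.00806) and Marco by -1.28 (edgeR adjusted p = 0.0613). Trem2 was 1.05 with an adjusted p of 0.124 in edgeR when FGF21-treated control library 2 was left out, and Marco was -1.15 with 0.0799 for the same library.

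FGF21 was not accompanied by a called difference in any of the 10 genes in either genotype. In controls, edgeR called 0 of the 10, against 0.0542% of all genes, and in LmnaADKO mice 0 of the 10, against 0.0% of all genes. None of the 10 reached an unadjusted p under 0.05 in either comparison, beside 6.16% and 6.71% of all genes, and DESeq2 also called 0. In LmnaADKO mice, the median of Gpnmb was 11.5 CPM under vehicle and 5.68 CPM under FGF21, with ranges of 2.92 to 21.3 and 0.774 to 14.5 CPM. This overlap gave a log2 fold change of -0.77 ± 0.659 (edgeR adjusted p = 0.781). Cd9 had medians of 38.4 and 28 CPM, and 3 of the 8 FGF21-treated livers lay below every vehicle-treated one (-0.36 ± 0.237, edgeR adjusted p = 0.753). Trem2 (-0.01 ± 0.469) and Marco (0.00 ± 0.502) had wide errors around estimates that single libraries moved. Marco was 0.89 without vehicle-treated library 4 (edgeR adjusted p = 0.626), and Trem2 ran from -0.38 without FGF21-treated library 7 to 0.15 without vehicle-treated library 1 or 6, and was 0.64 within mice with 4-digit animal numbers (edgeR adjusted p = 0.741). Clec4f, Timd4, and Vsig4 were higher in estimate by 0.25 ± 0.218, 0.27 ± 0.393, and 0.15 ± 0.257, and ran from 0.12 to 0.35, 0.07 to 0.59, and -0.05 to 0.28 when 1 library was left out.

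In controls, FGF21 went with a log2 fold change of -1.54 ± 1.13 in Gpnmb (edgeR adjusted p = 0.797), in which the vehicle group includes library 4 with 11.8 CPM. Without that library the estimate was -0.01. The other 9 genes had estimates between -0.17 (Trem2 and Cd9) and 0.28 (Clec4f). When 1 library was left out, Trem2 ran from -1.40 (without FGF21-treated library 3) to 0.26, Cd9 from -0.57 (without FGF21-treated library 2) to 0.11, and Clec4f from 0.00 (without FGF21-treated library 3) to 0.50. Without the 3 libraries with steep length slopes, these values were -1.32, 0.09, and 0.06. Animal numbers had 4 digits in all 3 FGF21-treated controls and in 1 of 7 vehicle-treated ones, so that number series and treatment can hardly be told apart in controls. This touches the present comparison and the interaction, and the number series also nearly follows genotype under vehicle. The difference of the FGF21 differences between genotypes was tested as an interaction, which edgeR called in 0 of the 10 genes, against 0.00417% of all genes, and DESeq2 likewise in 0. The interaction estimate of Gpnmb was 0.77 ± 1.31 and turned to -0.76 without vehicle-treated control library 4, and that of Trem2 was 0.17 and ran from -0.27 without FGF21-treated control library 2 to 1.39 without library 3 of that group. None of these was called, and 0 of the 10 had an unadjusted p under 0.05, beside 4.86% of all genes. With 3 FGF21-treated controls, the standard errors of these contrasts allow sizeable differences in the rarer genes.

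Of 22 further genes on the lipid-associated list, 11 were called higher in LmnaADKO livers under vehicle and 1 lower, beside 5.12% and 3.36% of all genes. In estimate 17 were higher and 5 lower, with a median log2 fold change of 0.88 beside 0.0 over all genes. Cd36, a fatty acid transporter, was 349 CPM against 146 CPM (1.25 ± 0.142, edgeR adjusted p = 5.82e-07), and Anxa5, a phosphatidylserine-binding protein, was 292 against 88.8 CPM (1.72 ± 0.261, edgeR adjusted p = 6.95e-05). Lipa, the lysosomal acid lipase, was 287 against 173 CPM (0.74 ± 0.121, edgeR adjusted p = 9.22e-05), and Spp1, or osteopontin, was 116 against 32.7 CPM (1.83 ± 0.31, edgeR adjusted p = 0.000302). Cd36 and Lipa are also made by hepatocytes, and Spp1 by bile duct cells. The 1 gene called lower was Atp6v0d2, a subunit of the vacuolar proton pump (-1.35 ± 0.278, edgeR adjusted p = 0.0014), named after its value was seen. Lpl, lipoprotein lipase, and Fabp5, a fatty acid-binding protein, were not called (0.51 ± 0.308 and -0.20 ± 0.262). Without the 3 libraries with steep length slopes, 13 were higher and 1 lower. Under FGF21, 4 of the 22 were called higher, beside 1.61% of all genes, namely Cd36 (1.09 ± 0.183), Lipa (0.74 ± 0.154), Fabp4 (1.24 ± 0.3), and Anxa5 (1.35 ± 0.339).

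**Figure D3:**
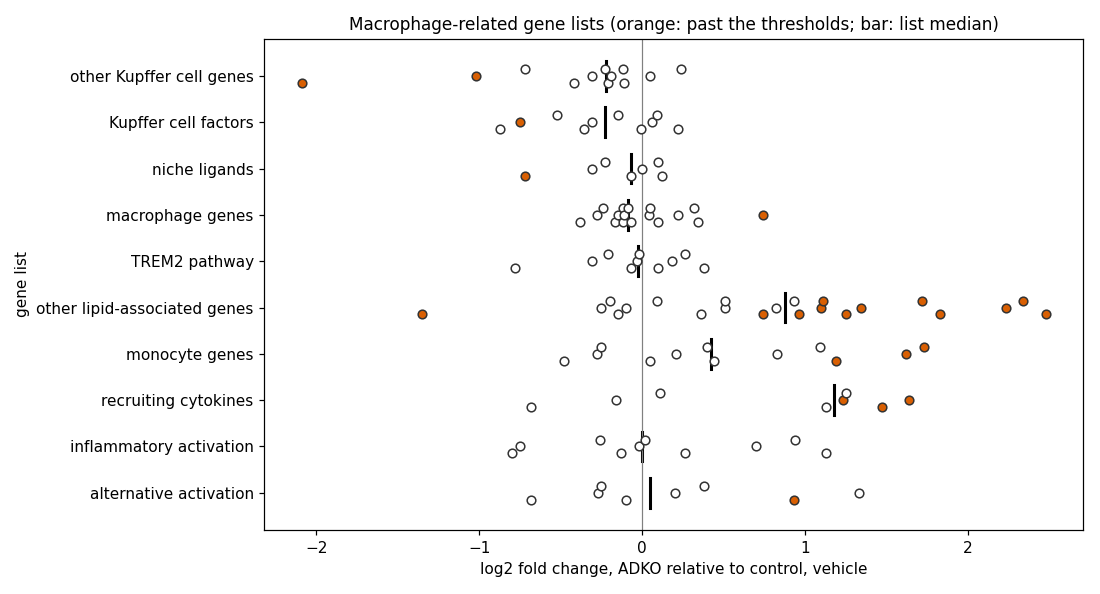
Log2 fold changes of single genes on 10 macrophage-related lists, vehicle-treated LmnaADKO relative to vehicle-treated control. Orange points passed both thresholds and black bars are list medians, which were 0.88 for the other lipid-associated genes, 1.18 for recruiting cytokines, and -0.22 for the other Kupffer cell genes.

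Of 10 genes of the Trem2 pathway under vehicle, edgeR called 0, with 2 at an unadjusted p under 0.05, and DESeq2 also called 0. Tyrobp, the adaptor through which Trem2 signals, had a log2 fold change of -0.07 ± 0.305. The median of the list was -0.03. Across all 10 macrophage-related lists, 24 of 116 genes were called under vehicle, beside 8.48% of all genes, and 43 had an unadjusted p under 0.05, beside 27.0% of all genes. Because the lists were chosen with earlier results of these data known, these shares are a description and no test of enrichment.

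Of 12 other Kupffer cell genes, 2 were called lower under vehicle and 0 higher, beside 3.36% and 5.12% of all genes, with a median of -0.22. Fcna, a ficolin that binds microbial sugars, was 55.8 to 122 CPM in vehicle-treated controls and 32.2 to 53.6 CPM in LmnaADKO livers. These ranges did not overlap, which 3.73% of all genes showed in the downward direction, and the log2 fold change was -1.02 ± 0.244 (edgeR adjusted p = 0.00518). Fcna was also called lower under FGF21 (-0.98 ± 0.278, edgeR adjusted p = 0.0481). Cd209f, a C-type lectin, was called lower as well (-2.09 ± 0.613, edgeR adjusted p = 0.0187) at levels of at most 0.59 CPM in vehicle-treated controls. Cd163, the hemoglobin scavenger receptor, was not called (-0.72 ± 0.448).

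Among 10 transcription factors of Kupffer cell identity, Id3 alone was called, lower by a log2 fold change of -0.75 ± 0.237 (edgeR adjusted p = 0.0344), and edgeR called 0 of the 10 without the 3 libraries with steep length slopes. Nr1h3, which encodes LXRα, passed the adjusted p but not the fold threshold (-0.31 ± 0.0997, edgeR adjusted p = 0.033), and Spic, a factor of iron-recycling macrophages, passed neither (-0.52 ± 0.188, edgeR adjusted p = 0.0594). These factors are not restricted to macrophages in whole liver, Nr1h3 being made by hepatocytes. Of 7 niche signals that act on Kupffer cells, the Notch ligand Dll1 was called lower (-0.72 ± 0.207, edgeR adjusted p = 0.0175), while the growth factor Csf1 was not called (-0.23 ± 0.149). With 8.48% of all genes called under vehicle, 1 call in a list this short is not read as a result about the list.

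Monocyte genes and the cytokines that recruit monocytes contained several higher genes under vehicle. Of 12 monocyte genes, 3 were called higher, namely the chemokine receptors Ccr2 (1.19 ± 0.311, edgeR adjusted p = 0.00907) and Cx3cr1 (1.73 ± 0.477, edgeR adjusted p = 0.015) and the chitinase-like gene Chil3 (1.62 ± 0.488, edgeR adjusted p = 0.0251). Ccr2 was 0.984 to 2.49 CPM in vehicle-treated controls and 1.22 to 5.79 CPM in LmnaADKO livers, so that the groups overlapped. Ly6c2, the antigen of classical monocytes, was not called (-0.25 ± 0.248). Of 8 recruiting cytokines, 3 were called higher, Ccl2, the ligand of Ccr2 (1.47 ± 0.347, edgeR adjusted p = 0.00435), Ccl7 (1.64 ± 0.511, edgeR adjusted p = 0.0271), and Cx3cl1, the ligand of Cx3cr1 (1.23 ± 0.326, edgeR adjusted p = 0.00919). Beside both lists, 5.12% of all genes were called higher. Several of these calls rest on low counts. In vehicle-treated controls, Ccl7 had 0 to 14 counts (median 2), Cx3cl1 7 to 20, and Chil3 3 to 29. In vehicle-treated LmnaADKO livers they had 6 to 21, 21 to 55, and 9 to 84. Without the 3 libraries with steep length slopes, 2 of the 12 and 3 of the 8 were called higher. With a single library removed, the counts were 1 to 4 of the 12, lowest without vehicle-treated LmnaADKO library 6, and 2 to 5 of the 8, highest without vehicle-treated control library 4. Under FGF21, 1 of the 12, Chil3 (2.78 ± 0.748, edgeR adjusted p = 0.0348), and 0 of the 8 were called higher, beside 1.61% of all genes. Ccr2 (0.86 ± 0.402), Cx3cr1 (2.08 ± 0.681), Ccl2 (1.24 ± 0.466), Ccl7 (0.47 ± 0.668), and Cx3cl1 (0.59 ± 0.414) were higher in estimate there and not called.

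Among 10 genes of inflammatory activation, edgeR called 0 under vehicle, beside 8.48% of all genes, and DESeq2 also called 0. In edgeR, 1 of the 10 had an unadjusted p under 0.05, beside 27.0% of all genes. At these shares, 0 calls in a list this short are not read as a result about the list. Log2 fold changes were -0.26 ± 0.39 for Tnf and -0.80 ± 0.369 for Il1b. In the average over treatments, a comparison chosen after the data were seen, Il1b was called lower (-1.05 ± 0.278, edgeR adjusted p = 0.00915), beside 3.46% of all genes. Without the 3 libraries with steep length slopes, edgeR called 0 of these 10 genes in the average. Of 17 general macrophage genes, Cd14, the co-receptor for lipopolysaccharide, was the 1 called (0.74 ± 0.176, edgeR adjusted p = 0.00405), and the list median was -0.09. Of 8 genes of alternative activation, Ear2, an eosinophil-associated ribonuclease, was the 1 called higher (0.93 ± 0.284, edgeR adjusted p = 0.0278). The single calls of Cd14 and Ear2 stand beside 8.48% of all genes called under vehicle. FGF21 against vehicle gave 0 called genes on these lists in either genotype in edgeR and in DESeq2. EdgeR called 0.0542% of all genes in controls and 0.0% in LmnaADKO mice. An unadjusted p under 0.05 in edgeR was reached by 5 of 116 in controls and 6 of 116 in LmnaADKO mice. The shares of all genes were 6.16% and 6.71%.

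Between livers of the same group, the resident genes varied together to different degrees. The measure was the correlation of deviations of log2 CPM from the group mean over the 24 libraries, which share depth and tissue composition, and it is given as a description. All 10 pairs of resident genes were positive, from 0.313 (Marco and Cd5l) to 0.869. Timd4 and Marco had r = 0.869 (Spearman's rho 0.779), Cd5l and Adgre1 0.852 (0.807), and Clec4f and Vsig4 0.848 (0.862). Trem2 and Gpnmb had r = 0.728 (0.791), whereas Cd9 had r = 0.0245 with Trem2 and 0.369 with Gpnmb (0.448 without the 3 libraries with steep length slopes). Cd68 varied both with Trem2 (0.64, and 0.354 without the 3 libraries with steep length slopes) and with Clec4f (0.571, and 0.405 without them).

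Of the 15 pairs of a resident with a lipid-associated gene, 14 were negative, with a median of -0.251 and a range from -0.624 to 0.137 (Cd5l and Cd9), and those with Cd9 lay between -0.294 and 0.137. Timd4 had r = -0.624 with Gpnmb (rho -0.716) and -0.608 with Trem2 (rho -0.693). The values were -0.605 and -0.584 after the 2 libraries farthest from the median of Timd4 were left out, and -0.632 and -0.705 without the 3 libraries with steep length slopes. Single livers of a group did not all follow this order. Vehicle-treated LmnaADKO library 6 had the lowest Timd4 of its group, 2.39 CPM, and the highest Gpnmb, 21.3 CPM. Library 4 of the same group had the highest Timd4, 13.5 CPM, and the lowest Gpnmb, 2.92 CPM. Library 3 of that group was second highest in both, with 9.31 CPM of Timd4 and 15.2 CPM of Gpnmb. In FGF21-treated LmnaADKO mice, library 4 had 13.2 CPM of Timd4 and 0.774 CPM of Gpnmb, library 3 had 3.28 and 14.5 CPM, and library 6, with the lowest Timd4 of the group at 2.65 CPM, had 6.88 CPM of Gpnmb.

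**Figure D4:**
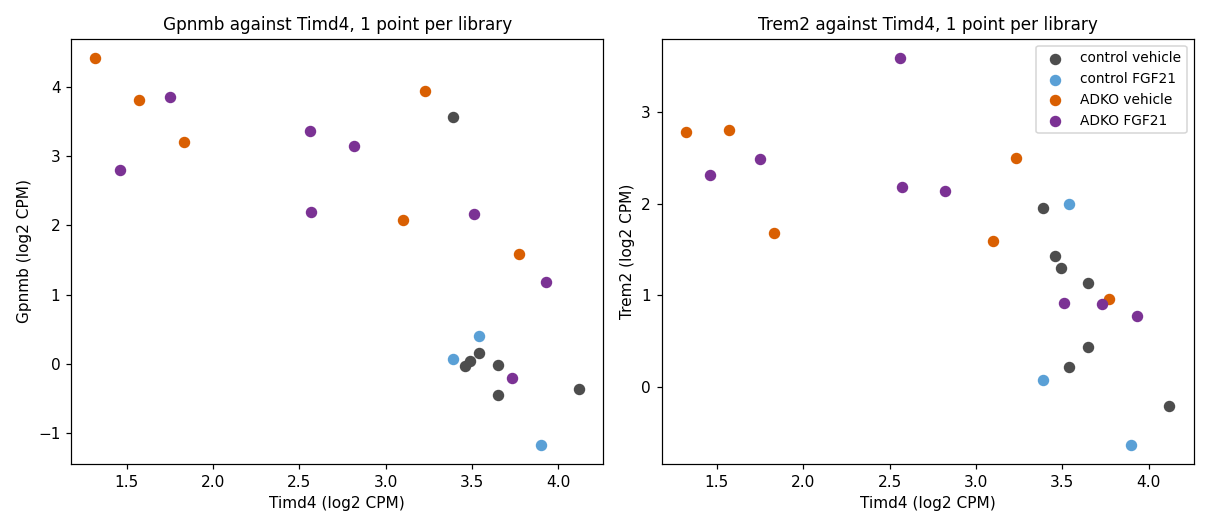
Log2 CPM of Gpnmb (left) and Trem2 (right) against log2 CPM of Timd4, with 1 point per library coloured by group. Most controls lie at high Timd4 and low Gpnmb, and LmnaADKO livers extend from there toward low Timd4 and high Gpnmb; the correlations within groups were -0.624 and -0.608.

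The genes most like Clec4f between livers of a group, searched among 12492 genes whose log2 CPM averaged 0 or more, were Folr2 (r = 0.946), Cfp (0.903), and C1qa (0.887). For Adgre1 they were Cd5l (0.852), Siglece (0.809), and Cd53 (0.787). For Trem2 they were Islr (0.852), Sprr1a (0.84), and Cstb (0.837). Folr2 and C1qa are macrophage genes, Siglece is a myeloid gene and Cd53 a leukocyte tetraspanin, whereas Islr is known from stromal cells and Sprr1a from epithelia.

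Markers of other cell types were read beside the macrophage genes. Summed neutrophil markers were 5.56 to 20.4 CPM in vehicle-treated controls and 8.02 to 13.1 CPM in vehicle-treated LmnaADKO livers, T and NK cell markers 4.72 to 9.94 and 3.75 to 8.66 CPM, and dendritic cell markers 4.75 to 8.14 and 5.16 to 8.39 CPM, with overlap in each. B cell markers were 7.31 to 20.4 and 8.02 to 17.5 CPM, also with overlap. Stellate cell markers were 196 to 250 and 249 to 342 CPM, and of 6, Lrat was called higher (0.74 ± 0.202, edgeR adjusted p = 0.0135). Sinusoidal endothelial markers were 225 to 289 and 212 to 270 CPM, and of 6, Lyve1 was called higher (1.93 ± 0.206, edgeR adjusted p = 5.82e-07), at 3.81 to 9.9 CPM in controls and 14.9 to 31 CPM in LmnaADKO livers. Lyve1, a hyaluronan receptor, is made by lymphatic endothelium and some macrophages as well. Erythroid markers were 283 to 2040 and 709 to 3760 CPM, and of 5, Alas2 was called higher (1.22 ± 0.343, edgeR adjusted p = 0.0183). Hepatocyte markers, which also check the tissue label, were 73700 to 129000 CPM (median 107000) and 66900 to 101000 CPM (median 87100). Of the 5 measured, Cps1, a urea cycle enzyme, was called lower (-0.93 ± 0.198, edgeR adjusted p = 0.00155). All 6 LmnaADKO livers lay below every control for Cps1, as 3.73% of all genes did. These single calls stand beside 8.48% of all genes called under vehicle. The part of these cells in the differences of macrophage genes was not tested.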

How the data were processed

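Liver polyA RNA of 24 female mice was sequenced in strand-specific libraries. The authors deposited expected counts per gene as whole numbers, without normalization, and the submitters' processing notes name cutadapt 4.8, FastQC 0.11.8, STAR 2.7.8a, RSEM 1.3.3, and GRCm38. The methods name sequencing at a university core, whereas the labels name another provider. All 23972 genes were used, as CPM after TMM scaling, with edgeR 4.0.16 (R 4.3.3), a quasi-likelihood fit of the 4 groups without covariates, and Benjamini-Hochberg adjustment over all genes. Calls needed an adjusted p under 0.05 and a fold above 1.5. DESeq2 1.42.0, other scaling, low-count filtering, covariates, and leaving out libraries were alternatives. Genes were located, and their exon lengths taken, in GENCODE M21, and 1 listed gene was not analysed here. The 10 genes are named throughout, and other lists by their up to 3 smallest adjusted p-values plus defining genes. The members and lists were chosen with earlier results of these data known. The edgeR fit was tested on counts simulated for LmnaADKO against control under vehicle over 23972 genes. Of these, 200, drawn from genes with a mean above 1 CPM, were changed by a fold of 2. The fit called 176 of the 200 and 1 other gene, and recovery of rarer genes was not tested. Libraries are numbered within each group in ascending order of animal number. With 19863304 to 21510054 counts per library, 3 counts correspond to 0.124 to 0.176 CPM.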

Additional observations from a re-analysis of the deposited data

Results flagged for a closer look

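In 30 groups of 6 to 8 libraries, 8 highest values, of 7 genes, had a gap to the next that, relative to the range of the group, passed Dixon's critical value. For normally distributed values, chance gives about 1 in 20 groups. The rule was applied to CPM without logarithm, and some flagged values share a library, so the number flagged is not read as an excess. Marco was 47.5 CPM in vehicle-treated LmnaADKO library 4, with the next at 11.4 CPM. Gpnmb was 11.8 CPM in vehicle-treated control library 4, with the next at 1.02 CPM. Trem2 at 11.9 CPM and Cd68 at 70.1 CPM stood apart in FGF21-treated LmnaADKO library 7, the library with the steepest length slope (-0.331). Vsig4 at 89.2 CPM and Cd5l at 272.0 CPM stood apart in FGF21-treated LmnaADKO library 2. Timd4 was 17.3 CPM in vehicle-treated control library 1, with the next at 12.5 CPM, and Cd68 was 42.8 CPM in vehicle-treated LmnaADKO library 1, with the next at 29.8 CPM.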

How the results depend on the processing

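Under vehicle, 2 members were called, and 3 with DESeq2 on all groups. The count was 1 with edgeR on the compared groups alone and with the number of digits in the animal number as a covariate. It was also 1 without the 3 libraries with steep length slopes. Over 9 alternatives the count ran from 1 to 3, and Trem2 was called in 3 of them. The cause was not tested. Leaving out 1 library at a time gave 1 to 4. The digits nearly follow genotype under vehicle and treatment in controls. Gpnmb was 2.27 (edgeR adjusted p = 0.121) and Cd9 1.5 (0.00217) with that covariate. Under FGF21, 1 member was called, 2 with DESeq2 on all groups or on the compared groups, and 0 with DESeq2 size factors in edgeR, with the digits as a covariate, and without the 3 libraries. Leaving out 1 library gave 0 to 1. Within mice with 4-digit numbers under FGF21, Gpnmb was 3.17 (edgeR adjusted p = 0.00864) and Cd9 1.05 (0.229). In the average over treatments, 4 were called, 3 to 5 under 7 alternatives and 2 to 6 when 1 library was left out. FGF21 comparisons and the interaction gave 0 calls in each alternative run, which for 3 controls says little about stability. No called value changed sign. No paired analysis was possible because the labels give the groups no shared replicate numbers. P-values cover the spread between animals, and low counts limit Trem2 and Gpnmb most.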
